A study of Mus musculus with 6 samples.

Results

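The genes of the proteasome were examined in Mint-ChIP peak lists of 2 histone marks from germinal center (GC) B cells of mice. Members were all protein-coding genes of the GENCODE annotation whose symbol is Psm, a letter from a to g and a digit, which gave 50 of 21851 genes. Of these, 31 encode constitutive subunits, 5 are the immunoproteasome genes Psmb8, Psmb9, Psmb10, Psme1 and Psme2, 7 encode assembly chaperones and 3 encode other regulators (Psme3, Psme4 and Psmf1). The remaining 4 are Psma8, whose product replaces Psma7 in male germ cells, Psmb11, the catalytic subunit of the thymic cortex, Psme2b, a copy of Psme2, and Psmc3ip, a meiotic recombination factor named after Psmc3 that is no subunit.

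Mint-ChIP is a chromatin immunoprecipitation for small samples in which chromatin is cut with MNase, barcoded and pooled before the immunoprecipitation. The series holds 6 libraries, 3 for H3K4me3 and 3 for H3K4me1, and every one is labelled wild type. In each case 50000 sorted cells were used from spleens of mice that had received sheep red blood cells 8 days earlier, and no mutant group is part of it. The labels call the cells GC centrocytes while the study's methods call them GC B cells, neither source ties an age or strain to these libraries, and neither says whether replicates came from separate mice, so the spread between them may be technical. For other experiments of the study the immunized mice are given as age- and sex-matched young adults on a C57BL/6J background. Elsewhere in the study WT stands for mice with the Cγ1-cre allele alone, and it is not stated whether these mice carried it. One protocol field names an H3K27ac antibody, whereas titles, antibody labels, series design and methods name the 2 marks used here.

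The proteasome is a barrel of alpha and beta rings, in which a few beta subunits carry the proteolytic sites, capped by a regulatory particle of ATPases and non-ATPases that binds, unfolds and feeds in ubiquitinated proteins. Interferon-gamma induces alternative catalytic subunits and the PA28 activator, and the resulting immunoproteasome trims proteins into peptides suited to MHC class I. Cells of the lymphoid lineage express it without stimulation. H3K4me3 marks promoters of active or poised genes, mostly at CpG-rich sequence, while H3K4me1 is typical of enhancers and of the flanks of active promoters. Neither mark measures transcription.

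A handful of promoter sequences shows how unlike the start sites of these genes are. They were read on the gene's strand from the RefSeq sequence of GRCm38.p6 (mm10), lie before the principal transcription start site (TSS) and outside annotated exons, and carry CpG dinucleotides in capitals. Psmb5 and Psmb6 encode constitutive catalytic subunits, Psmb10, Psme1 and Psme2 belong to the immunoproteasome, and Psmd4 encodes a ubiquitin receptor whose promoter flank held H3K4me1 in every library.
Psmb5, chr14:54618023-54618222, minus strand: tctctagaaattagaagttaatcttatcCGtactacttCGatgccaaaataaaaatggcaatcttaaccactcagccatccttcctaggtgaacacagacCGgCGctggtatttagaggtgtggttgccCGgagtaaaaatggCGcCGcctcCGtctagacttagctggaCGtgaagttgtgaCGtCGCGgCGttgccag
Psmb6, chr11:70525157-70525356, plus strand: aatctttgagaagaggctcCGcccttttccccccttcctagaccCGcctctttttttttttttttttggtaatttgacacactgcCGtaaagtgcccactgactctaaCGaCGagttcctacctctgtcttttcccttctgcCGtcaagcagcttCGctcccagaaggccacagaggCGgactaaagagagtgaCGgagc
Psmb10, chr8:105938445-105938642, minus strand: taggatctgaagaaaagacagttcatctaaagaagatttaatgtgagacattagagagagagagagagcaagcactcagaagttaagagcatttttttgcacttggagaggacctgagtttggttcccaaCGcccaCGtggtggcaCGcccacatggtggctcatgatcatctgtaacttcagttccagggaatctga
Psme1, chr14:55578249-55578359, plus strand: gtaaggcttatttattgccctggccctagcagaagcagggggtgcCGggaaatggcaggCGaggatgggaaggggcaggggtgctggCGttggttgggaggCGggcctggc
Psme2, chr14:55591114-55591313, minus strand: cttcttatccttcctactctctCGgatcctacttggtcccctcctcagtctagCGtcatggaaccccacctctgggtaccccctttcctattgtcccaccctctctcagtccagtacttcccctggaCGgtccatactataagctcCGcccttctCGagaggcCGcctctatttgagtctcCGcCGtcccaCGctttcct
Psmd4, chr3:95042615-95042814, minus strand: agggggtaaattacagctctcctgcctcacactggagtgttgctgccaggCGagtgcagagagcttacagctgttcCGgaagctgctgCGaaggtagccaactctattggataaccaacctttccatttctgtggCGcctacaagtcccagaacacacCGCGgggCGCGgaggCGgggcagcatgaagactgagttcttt
Psmb5 has 13 CpGs in its 200 bases, and Psmb6, Psme2 and Psmd4 have 9 each, against 3 in 198 bases of Psmb10. All 6 of these genes carried an H3K4me3 peak over a TSS in 3 of 3 libraries. At Psmb10 that peak reached 1039 bp, 39 bp and 421 bp upstream of the TSS in replicates 1 to 3. In replicate 2 most of the printed Psmb10 bases thus lay outside it.

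The lists held 46707, 41936 and 42862 H3K4me3 peaks and 24136, 13923 and 11922 H3K4me1 peaks in replicates 1 to 3. H3K4me3 peaks were called in broad mode and H3K4me1 peaks in narrow mode, so each contrast of the marks is also one of calling modes. Reads per library are not known from these lists. Of 9 GC B cell genes (Bcl6, S1pr2 and the like), all had promoter-proximal H3K4me3 and 6 had promoter-proximal H3K4me1 in 3 of 3 libraries. None of 4 T cell and 5 myeloid genes had H3K4me3 over a TSS in any library, although a peak lay within 5 kb in 3 libraries at Cd3d and Itgam, in 2 at Csf1r and in 1 at Adgre1. The 5 plasma cell genes all had it over a TSS, whereas 1 of 5 testis genes and 0 of 4 cortical thymic epithelium genes (Psmb11 among them) had it in 3 of 3 libraries.

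H3K4me3 was present at almost every proteasome gene. A peak within 5 kb of a TSS, called promoter-proximal here, was found at 47 of 50 members in each of the 3 libraries, and these were the same 47 genes. The share over all genes tested was 56.2%. All 31 constitutive subunits, all 5 immunoproteasome genes, all 7 chaperones, the 3 other regulators and Psmc3ip were among them, and Psma8, Psmb11 and Psme2b were not in any library. A gene without promoter-proximal H3K4me3 in any library was common in the genome, at 34.5%. A peak lay directly over a TSS in 3 of 3 libraries at 44 members, against 38.5% of all genes.

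The 3 members with nearby H3K4me3 that missed the last criterion all had it just inside the gene. At Psmc6, an ATPase of the regulatory particle, the peak covered the TSS in replicate 2 and began 72 bp and 40 bp downstream in replicates 1 and 3. At Psmd9, a chaperone of the ATPase ring, it covered the TSS in replicates 1 and 3 and began 56 bp downstream in replicate 2. At Psmg3, which helps build the alpha ring, the nearest peak began 127 bp, 18 bp and 117 bp from the TSS. Each of these distances is shorter than a single nucleosome.

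How much of the promoter was marked was expressed as covered length, the number of bases under peaks within 5 kb on either side of the principal TSS. Among the members with a peak, the median covered length was 2063 bp, 1898 bp and 2003 bp in replicates 1 to 3, against 2196 bp, 1907 bp and 1936 bp among all genes with promoter-proximal H3K4me3 in 3 of 3 libraries. The median fold enrichment, the authors' ratio of signal to local background for the strongest peak within 5 kb, was 7.83, 6.78 and 7.24 at the members and 6.78, 6.13 and 6.13 at those genes. The members' median was thus the higher in fold enrichment in every library. In covered length it was lower in replicates 1 and 2 and higher in replicate 3. The higher fold enrichment is not particular to the members. Respiratory complex I genes had 8.36, 6.56 and 6.91 and cytosolic ribosomal protein genes 6.98, 6.33 and 6.39.

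**Figure D1:**
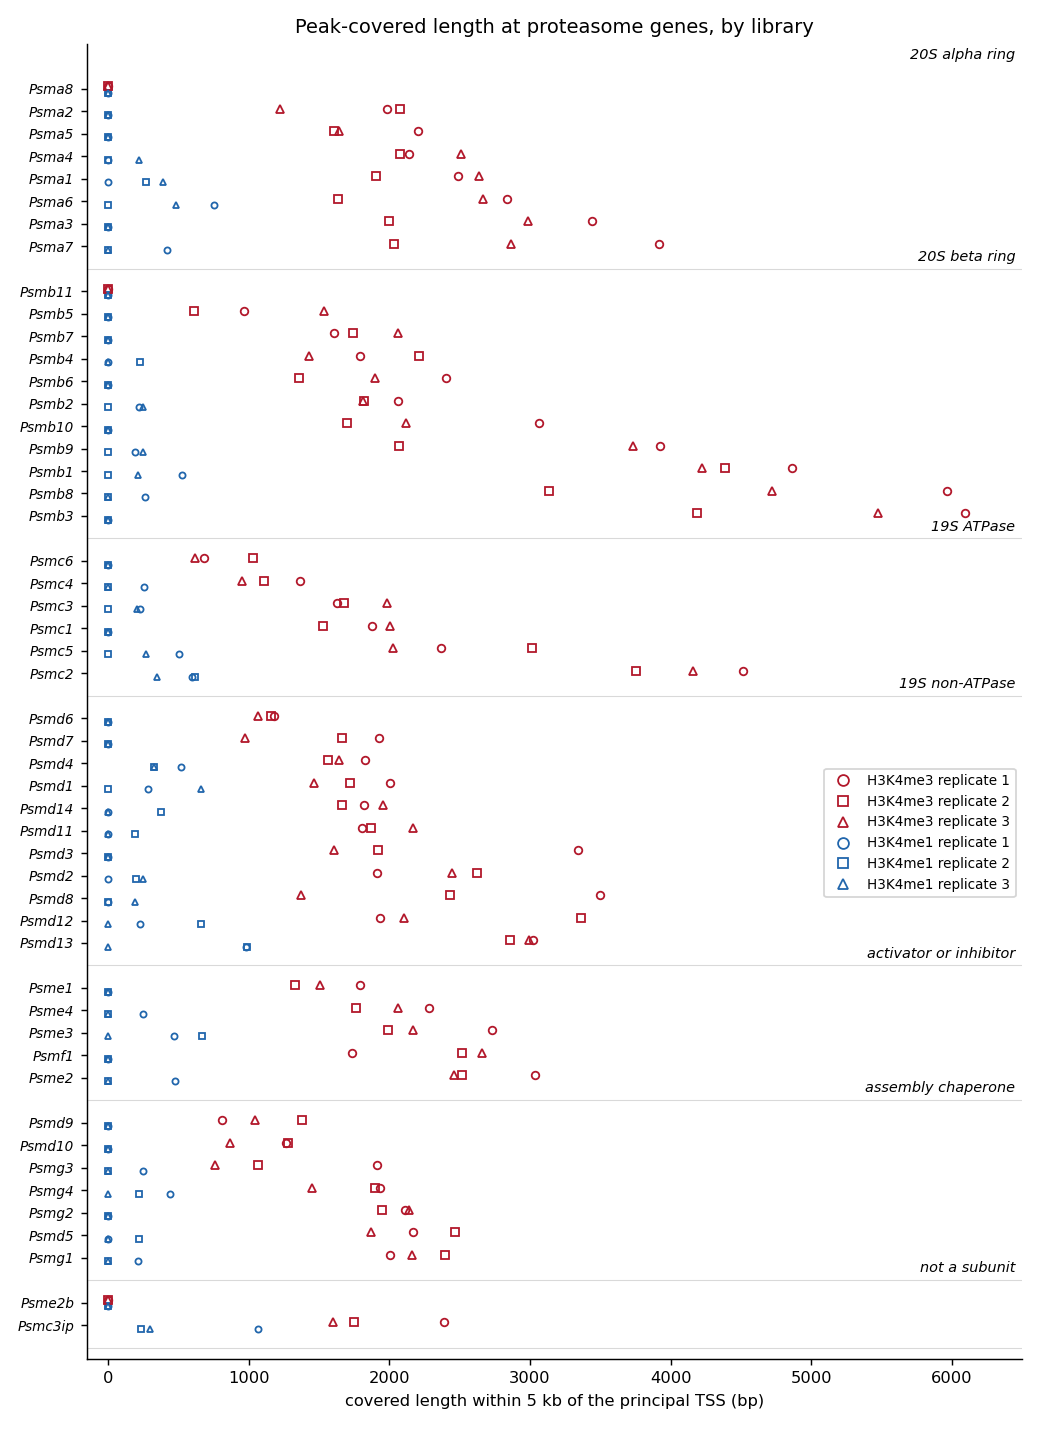
Bases under peaks within 5 kb of the principal TSS (x axis, bp) for each of the 50 members, grouped by role and ordered by mean H3K4me3 covered length. Red symbols are the 3 H3K4me3 libraries and blue symbols the 3 H3K4me1 libraries; Psma8, Psmb11 and Psme2b sit at 0 in all 6, and Psmb3 reaches 6095 bp.

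Among the alpha ring genes, whose products form the outer rings and the gate, Psma7 and Psma2 marked the ends of the range of those with a peak. Psma7 had 3914 bp, 2036 bp and 2863 bp of H3K4me3 in replicates 1 to 3. Psma2 had 1981 bp, 2074 bp and 1224 bp. The libraries of these 2 genes overlap, since replicate 2 of Psma7 lies below replicate 2 of Psma2. Psma2 also had the highest fold enrichment of any member in replicate 1, at 13.40.

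The beta ring genes, which include the catalytic subunits, spanned the widest range. Psmb3, a structural subunit, had 6095 bp, 4185 bp and 5473 bp. Psmb1, another structural subunit, had 4861 bp, 4389 bp and 4224 bp. Psmb5, the constitutive subunit with chymotrypsin-like activity, had 968 bp, 613 bp and 1538 bp. Psmb5 was therefore below Psmb3 and Psmb1 in every library, with no overlap. Its immunoproteasome replacement Psmb8 was at the other end of the range, as described below. At Psmb1 the TSS of Tbp lay 1590 bp away and at Psmb3 that of Pcgf2 lay 2902 bp away, and both fall inside the window over which bases were counted. Psmb1 and Tbp lay under 1 H3K4me3 peak in every library, so the value at Psmb1 cannot be told apart from that of Tbp.

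In the ATPase ring, which unfolds substrates, Psmc2 had 4517 bp, 3753 bp and 4155 bp. Psmc6 had the shortest mean covered length of all members with a peak, with 684 bp, 1030 bp and 620 bp. The values of the 2 genes do not overlap. Psmc2 starts 32 bp from Dnajc2 on the opposite strand and shares its peak, while no other protein-coding TSS lies near Psmc6, the nearest being that of Ero1l at 11216 bp.

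Among the non-ATPase subunits of the regulatory particle, Psmd13 had 3021 bp, 2854 bp and 2991 bp and Psmd6 had 1178 bp, 1159 bp and 1065 bp. Both varied little between libraries, with an SD over 3 libraries of 89.0 bp and 60.5 bp, and they do not overlap. Psmd14, the deubiquitinase of the particle, had 1818 bp, 1660 bp and 1954 bp.

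Among the assembly chaperones, Psmg1, which pairs with Psmg2 to seed the alpha ring, had 2004 bp, 2397 bp and 2158 bp. Psmd9 had 809 bp, 1376 bp and 1043 bp. All 3 values of Psmg1 lie above those of Psmd9. Of the regulators outside the interferon response, the nuclear activator Psme3 had 2727 bp, 1991 bp and 2169 bp, the activator Psme4 had 2285 bp, 1764 bp and 2062 bp, and the inhibitor Psmf1 had 1737 bp, 2519 bp and 2656 bp. Their ranges overlap one another. At Psmf1 the peak began 2646 bp, 1719 bp and 1616 bp downstream of the principal TSS in replicates 1 to 3. It covered another TSS of the gene and left the principal TSS bare. Psmc3ip, the meiotic factor, had 2388 bp, 1750 bp and 1600 bp.

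H3K4me3 covered more bases than H3K4me1 in every library of the first mark against every library of the second at 47 of 50 members, the same 47 that had the mark. Over all genes tested 54.5% met this criterion. Among the 12273 genes with promoter-proximal H3K4me3 in 3 of 3 libraries 11902 met it, so it is general where H3K4me3 was called. The broad and narrow calling modes of the marks also enter it. For a single gene the two-sided exact permutation test over the 20 assignments of 6 libraries cannot give less than p = 0.1, which these 47 genes reached, so no gene could pass 0.05.

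Around the principal TSS, the H3K4me3 peaks of the members extended further into the gene than away from it, as those of most genes did. At the TSS itself 87.3% ± 1.15 of members (SD, n = 3) lay under a peak, compared with 41.8% ± 2.59 of all genes. At 1000 bp downstream the values were 63.3% ± 5.77 and 31.9% ± 2.61, and at 1000 bp upstream 28.7% ± 6.43 and 17.8% ± 1.94. Coverage at the members thus fell faster upstream than downstream, and at 2000 bp downstream it was down to 12% ± 3.46. Of 131 member peaks that covered the principal TSS, 107 reached further downstream than upstream, with a median reach of 1236 bp and 645 bp. In replicates 1 to 3 this held for 34 of 44, 36 of 44 and 37 of 43 peaks, and over all genes with a peak there for 69.7%, 69.4% and 69.3%, so the lean is general.

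**Figure D2:**
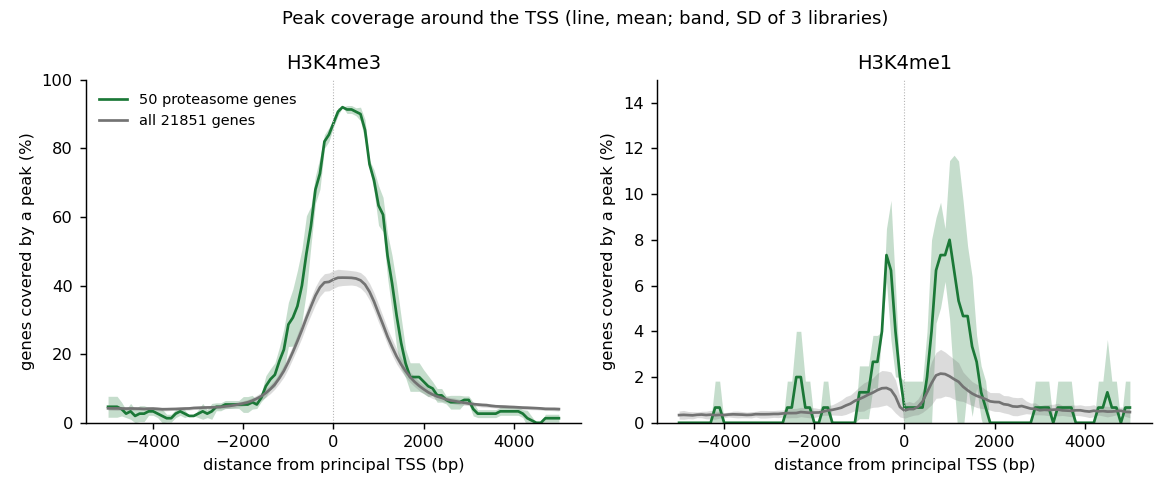
Share of genes (y axis, %) under an H3K4me3 peak (left) or an H3K4me1 peak (right) at each distance from the principal TSS (x axis, bp, positive downstream), for the 50 members (green) and all 21851 genes (gray); lines are means and bands the SD of 3 libraries. For the members H3K4me3 stands at 87.3% at the TSS, whereas H3K4me1 is at 0.67% there and at 8.0% at 1000 bp downstream; the y axes differ in scale.

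The 5 immunoproteasome genes all carried H3K4me3 over a TSS in 3 of 3 libraries, and they differed widely among themselves. Psmb8 (ENSMUSG00000024338, chr17:34197721-34201454), which replaces Psmb5, had 5962 bp, 3133 bp and 4722 bp. Psmb9 (chr17:34181987-34187764), which replaces Psmb6, had 3926 bp, 2071 bp and 3729 bp. Psmb10 (chr8:105935735-105938444), which replaces Psmb7, had 3063 bp, 1700 bp and 2116 bp. Each of the 3 was shortest in replicate 2 and longest in replicate 1. For the PA28 activator, Psme2 (chr14:55587441-55591113) had 3034 bp, 2519 bp and 2459 bp and Psme1 (chr14:55578123-55581529) had 1791 bp, 1329 bp and 1508 bp. In the order Psmb8, Psmb9, Psme2, Psmb10, Psme1 each gene overlaps its neighbour in the order, and the first lies above the last without overlap.

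Each catalytic subunit of the immunoproteasome was set beside the constitutive subunit it replaces. Psmb8 lay above Psmb5 (968 bp, 613 bp and 1538 bp) in every library, by 4994 bp, 2520 bp and 3184 bp, with means of 4605.7 ± 1418.1 bp against 1039.7 ± 466.6 bp (SD, n = 3) and a ratio of 4.43. Psmb9 lay above Psmb6 (2402 bp, 1355 bp and 1897 bp) in every library as well, by 1524 bp, 716 bp and 1832 bp, with a ratio of 1.72. Psmb10 lay above Psmb7 (1605 bp, 1744 bp and 2062 bp) in 2 of 3 libraries, with differences of 1458 bp, −44 bp and 54 bp and a ratio of 1.27. The mean difference within libraries exceeded its SD for the first and second pairs, at 3566.0 ± 1280.5 bp and 1357.3 ± 576.4 bp (SD, n = 3), and not for the last, at 489.3 ± 840.3 bp. Since both genes of a pair come from the same 3 libraries, a two-sided exact sign-flip permutation test cannot give less than p = 0.25, which the first and second pairs reached.

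As a group the immunoproteasome genes had a longer median covered length than the 31 constitutive subunits in each library, by an amount that varied between libraries. The medians were 3063 bp and 2003 bp in replicate 1, 2071 bp and 1869 bp in replicate 2, and 2459 bp and 1980 bp in replicate 3. The difference averaged 580.3 ± 437.9 bp (SD, n = 3) and was 340.5 bp without replicate 1. It rested in part on Psmb8 and Psmb9: without them it was 332.7 ± 623.7 bp, with 1031 bp, −169 bp and 136 bp in replicates 1 to 3, so the sign turned in replicate 2. The range of the constitutive subunits, from 684 bp to 6095 bp in replicate 1, enclosed that of the immunoproteasome genes, from 1791 bp to 5962 bp. Median fold enrichment did not set the groups apart, with 7.98 and 7.83, 6.74 and 6.77, and 7.19 and 7.28. The choice of members fixes these groups, so the values are a description and no test was made.

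**Figure D3:**
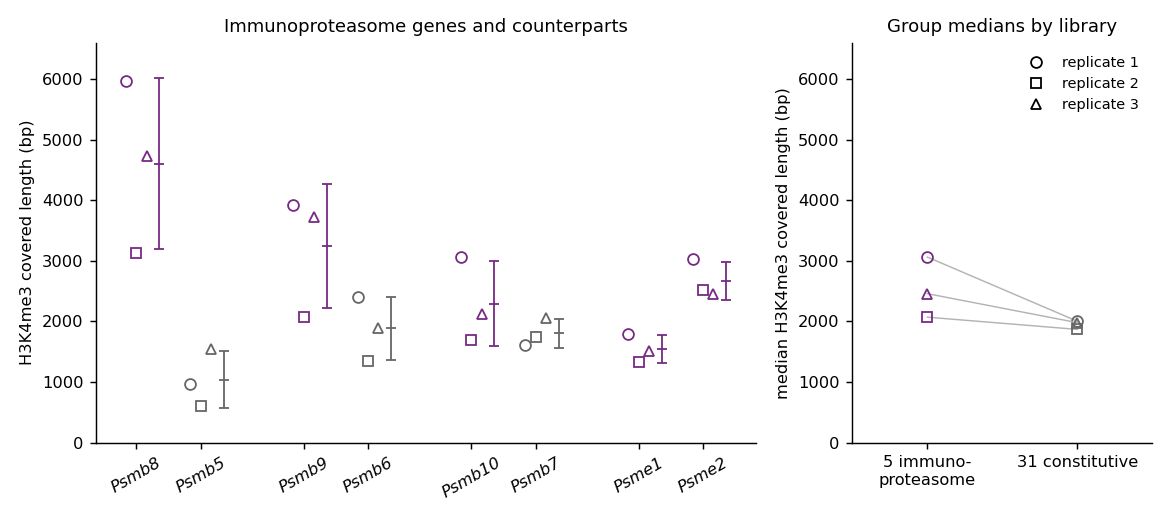
H3K4me3 covered length (y axis, bp) of the immunoproteasome genes (purple) beside the constitutive subunits they replace (gray), with each library as a symbol and the mean and SD as a bar (left), and the group medians by library joined by a line (right). Psmb8 lies above Psmb5 in all libraries, and the immunoproteasome median exceeds the constitutive one by 202 bp to 1060 bp.

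Psmb8 and Psmb9 lie 10026 bp apart in the MHC class II region, interleaved with the peptide transporter genes Tap1 and Tap2. Psmb9 and the nearest TSS of Tap1 are 38 bp apart on opposite strands, and 1 H3K4me3 peak covered both in every library, so their values cannot be told apart. That peak had a fold enrichment of 10.27, 10.18 and 7.49. The peak at Psmb8 had 5.43, 5.84 and 5.50 and was the longer of the 2 in each library. In replicate 1 the Psmb8 peak ran from 1552 bp upstream to 4409 bp downstream of the TSS, past the end of the gene, and in replicate 2 from 1362 bp upstream to 1527 bp downstream. Tap2 had a separate peak that began 5756 bp to 5817 bp from the Psmb8 TSS.

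**Figure D4:**
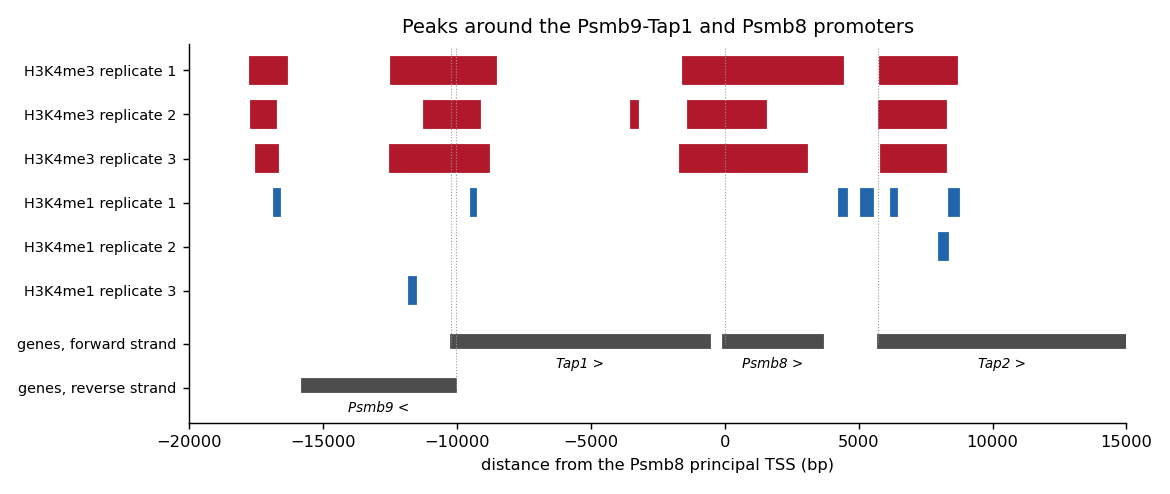
Peaks of the 6 libraries (red, H3K4me3; blue, H3K4me1) and genes (gray; arrowheads give the strand) by distance from the Psmb8 principal TSS (x axis, bp), with dotted lines at principal TSSs. H3K4me3 covers the Psmb9-Tap1 and Psmb8 promoters in all 3 libraries, while the H3K4me1 peaks differ between libraries.

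Sharing a peak with a neighbor was not restricted to Psmb9. A non-member TSS lay within 1 kb of the principal TSS at 11 of 50 members (22%), against 11.3% of all genes. Of the 11 neighbors 10 were on the opposite strand. Over all genes this held for 2134 of 2464 such neighbors, so the arrangement is general. The distances ran from 32 bp (Psmc2 and Dnajc2) to 621 bp (Psme2 and Rnf31, a subunit of the linear ubiquitin ligase). The others were Psmc5 with Ftsj3, Psmd13 with Sirt3, Psma2 with Mrpl32, Psma4 with AY074887, Psma7 with Ss18l1, Psmd10 with Atg4a, Psmg2 with Cep76 and Psmg3 with Gm26938. At 9 of the 11, the exceptions being Psma7 and Psmg3, the neighbors lay under 1 H3K4me3 peak in every library, so the values of such a pair cannot be told apart. Beyond 1 kb, Psmb1 and Tbp also shared a peak in every library.

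Fewer proteasome genes had promoter-proximal H3K4me1 than H3K4me3, as was the case over all genes. A promoter-proximal peak was found at 21, 14 and 14 members in replicates 1 to 3, while among the 12273 genes with promoter-proximal H3K4me3 in 3 of 3 libraries it was found at 46.1%, 29.3% and 27.2%. It was present in 3 of 3 libraries at 4 members, against 6.17% of all genes, in 2 libraries at 12, in 1 library at 13 and in none at 21. At least 1 library had it at 29 members, against 35.7% of all genes. Set beside the same 12273 genes, of which 11% had H3K4me1 in all 3 libraries and 61.1% in at least 1, the 4 of 47 and 29 of 47 members stood near the background. Without replicate 2 the count in all libraries rose to 10 and without replicate 3 to 8, so the number rests on which libraries are asked to overlap.

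The 4 genes were Psmd4, Psmc2, Psma6 and Psmc3ip. Psmd4 (chr3:95032694-95042614) was the clearest. Its H3K4me1 summit lay 322 bp, 246 bp and 245 bp upstream of the TSS in replicates 1 to 3, outside any annotated transcript, and had a fold enrichment of 6.32, 8.24 and 8.77. The summits held 8, 11 and 11 fragments, and the peaks reached into the promoter sequence printed for this gene in all 3 libraries.

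Psmc2 (chr5:21785283-21803787) had an intronic H3K4me1 summit 1083 bp, 1060 bp and 1054 bp downstream of its TSS. The 3 positions lie within the width of a nucleosome, and all fall inside the H3K4me3 peak. At Psma6 (chr12:55384222-55418454), an alpha ring gene, replicates 1 and 3 had intronic summits 804 bp and 900 bp downstream. Its peak in replicate 2 had its summit 11157 bp upstream of the principal TSS and lay 3344 bp from the nearest other TSS of the gene, so the libraries did not mark the same place. At Psmc3ip (chr11:101091823-101095436) replicate 2 had its summit 707 bp downstream and replicate 3 had it 342 bp upstream, while replicate 1 had peaks on both sides.

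**Figure D5:**
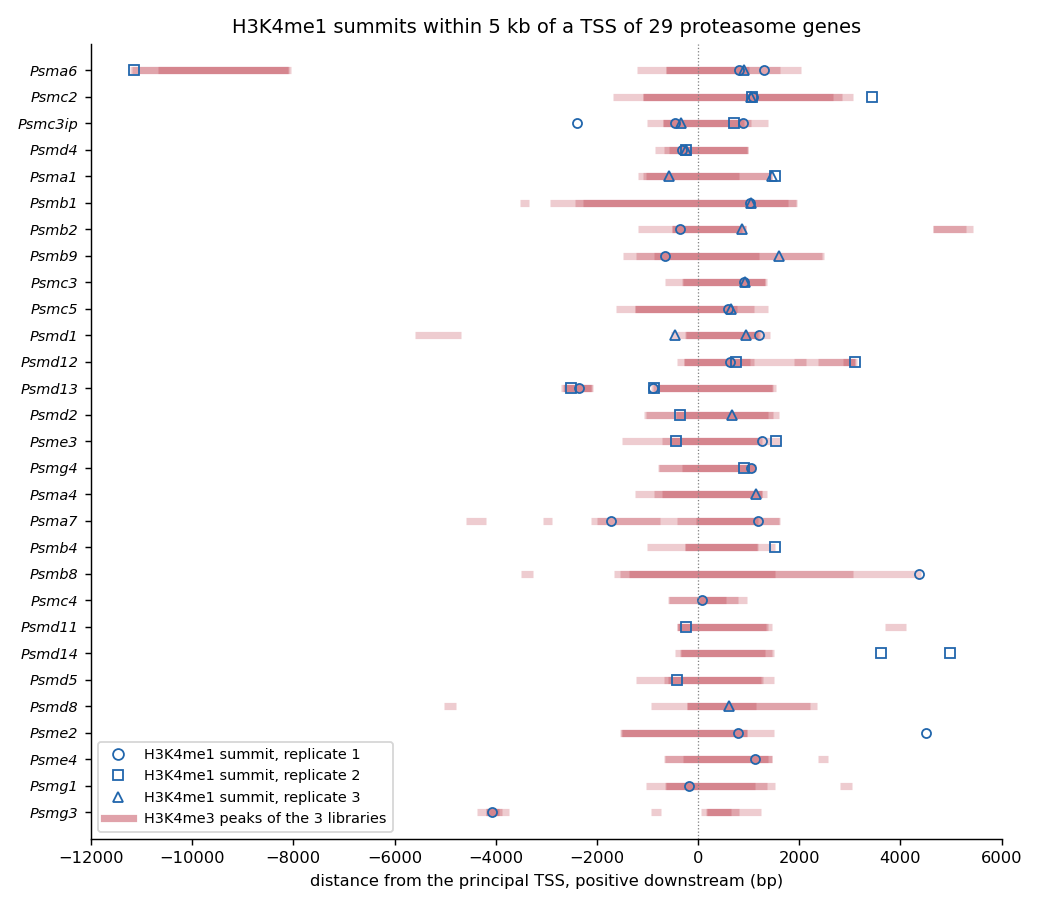
Position of H3K4me1 summits (blue symbols, 1 shape per library) within 5 kb of a TSS at the 29 members that had any, by distance from the principal TSS (x axis, bp, positive downstream), over the H3K4me3 peaks of the 3 libraries (red bands, darker where libraries overlap). Of 62 summits, 46 lie between 250 bp and 2000 bp from the TSS and 5 lie closer.

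Where H3K4me1 was found at members, it mostly overlapped H3K4me3 and lay away from the TSS. Of 62 promoter-proximal H3K4me1 peaks at members, 57 overlapped an H3K4me3 peak of at least 1 library. Their summits were downstream of the principal TSS in 40 cases and upstream in 22, at a median distance of 922.5 bp on either side. Of these summits, 38 fell in an intron of the member itself. The same shares were not computed for H3K4me1 peaks of other genes, so these counts are no trait particular to the members. At 1000 bp downstream 8.0% ± 3.46 of members lay under an H3K4me1 peak (SD, n = 3), compared with 2.03% ± 0.90 of all genes. At the TSS the values were 0.67% ± 1.15 and 0.53% ± 0.33. The values of all genes here include genes without H3K4me3, so the contrast is not one between marked genes. An H3K4me1 peak over a TSS was seen in a single library each at Psmd4 and Psmc4, 2 of 50 members against 2.36% of all genes.

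These H3K4me1 peaks were small. Fold enrichment and p-value at a narrow summit together fix the number of fragments there, and this number came out whole at all 62 peaks within a tolerance of 0.001 in −log10 p. The median was 6 fragments, with a range from 4 to 11, and 3 summits had at least 10. At this depth a missing peak in 1 library is not evidence that the mark is absent there.

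Among the immunoproteasome genes H3K4me1 was found at 3 of 5 in replicate 1, 0 of 5 in replicate 2 and 1 of 5 in replicate 3, compared with 12, 10 and 12 of 31 constitutive subunits. In percent, the immunoproteasome genes were at 60%, 0% and 20% and the constitutive subunits at 38.7%, 32.3% and 38.7%. The difference averaged −9.9 ± 27.8 percentage points (SD, n = 3), was smaller than its spread over libraries, and turned to 1.3 without replicate 2. Psmb9 had a peak in replicates 1 and 3, on opposite sides of its TSS. Psmb8 and Psme2 had peaks in replicate 1 only, and Psmb10 and Psme1 had none.

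Psma8 (chr18:14706151-14762301), the germ cell alpha subunit, had neither mark within 5 kb. Both marks nonetheless recurred at a single place in its first 10 kb. An H3K4me3 peak began 7357 bp, 7376 bp and 7396 bp downstream of its principal TSS in replicates 1 to 3, with a fold enrichment of 5.42, 7.45 and 7.16, and an H3K4me1 peak overlapped it in replicates 1 and 3. The place lies in an intron of Psma8. The paralog Psma7, whose product it replaces in germ cells, had 3914 bp, 2036 bp and 2863 bp of promoter-proximal H3K4me3.

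Psmb11 (chr14:54621433-54629556) lies next to Psmb5, with the TSSs 7288 bp apart. Its closest H3K4me3 peak, 7011 bp, 7112 bp and 7002 bp away, was the one over the Psmb5 promoter. These distances are from the principal TSS of Psmb11 at 54625310. The annotated gene starts at 54621433, nearer to that peak. Psme2b (chr11:48945354-48946190) had no H3K4me3 peak nearer than 12212 bp, 12595 bp and 12584 bp, whereas Psme2 itself had 3034 bp, 2519 bp and 2459 bp at its promoter. The 3 members without the mark therefore had their nearest peaks more than 5 kb from the protein-coding TSSs used, in all libraries. Reads from a copy and its parent gene can be hard to place, which was not tested here.

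A RefSeq promoter sequence, 250 bases before to 50 bases after the start, was found for 42 of 50 members. The median number of CpGs in these 300 bases was 19, against 7 over all 32851 promoters. It was 20 at 25 constitutive subunits and 11 at the 5 immunoproteasome genes. At Psmb8, Psmb9, Psmd13 and Psmf1 the RefSeq start lay 405 bp, 434 bp, 426 bp and 2876 bp downstream of the principal TSS. Their 300 bases lie wholly downstream of the TSS used for covered length, so the immunoproteasome value is partly not from that promoter. Among all genes with a matched promoter, promoter-proximal H3K4me3 in 3 of 3 libraries was found at 15.8% of those with 0 to 4 CpGs, 41.4% of those with 5 to 9, 75% of those with 10 to 19 and 85.5% of those with more. Every member with at least 10 CpGs had the mark, 20 of 20 in the first of the upper classes and 19 of 19 in the second. Psmb10, Psmb11 and Psme2b had 4 CpGs or fewer, with 3, 4 and 2, and of these Psmb10 had the mark.

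Letters that occur in the binding motifs of factors linked to these genes were searched on both strands of the same 300 bases. At Psmb8 and Psmb9 these bases lie downstream of the principal TSS. The interferon-stimulated element occurred in 5 of 42 members (11.9%), namely Psmb3, Psmd4, Psmd9, Psme1 and Psmg4, and in 3.44% of all promoters. The gamma-activated site TTCNNNGAA occurred in Psmb8, Psmd2 and Psmg1 (7.14%) and in 8.3% of all promoters. In Psmb8 it lies in the first exon of a longer transcript, before the RefSeq start and under the H3K4me3 peak of all 3 libraries, and is shown with the match in capitals.
Psmb8, chr17:34198088-34198116, plus strand: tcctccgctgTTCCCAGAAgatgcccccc
The antioxidant response element TGACNNNGC occurred in 6 members (14.3%) and in 12.4% of all promoters, and none of the 5 immunoproteasome genes held it. A loose form of the NF-kB motif occurred in 57.1% and 50.8%, CCAAT in 33.3% and 37.4%, and the GC box GGGCGG in 54.8% and 35.7%. These are matches of letters in a short window, not sites of binding.

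Genes that work with the proteasome also had H3K4me3 within 5 kb of a TSS. All 11 genes of class I antigen presentation, among them Tap1, Tap2, Tapbp, B2m and the transactivator Nlrc5, had promoter-proximal H3K4me3 in 3 of 3 libraries, and none had H3K4me1 in all 3, although 9 had it in at least 1. All 13 partners measured, such as the maturation factor Pomp, the ubiquitin receptor Adrm1, the unfoldase Vcp and the transcription factor Nfe2l1, had H3K4me3 in 3 of 3 libraries and none had H3K4me1 in all 3, with 11 having it in at least 1, beside 29 of 50 members and 35.7% of all genes. Directly over a TSS, H3K4me3 was found in 3 of 3 libraries at 9 of 11 class I genes and 5 of 13 partners. For the members this count was 44 of 50, and over all genes the share was 38.5%. The median H3K4me3 covered length, averaged over libraries, was 3296.3 bp in the class I list, 2381.7 bp in the partners and 1938.3 bp over the 50 members. Tap1 shares its peak with Psmb9, and its 3926 bp in replicate 1 is also the median of the class I list there. The TSS of Tap2 lies 5737 bp from that of Psmb8, and its window takes in part of the Psmb8 peak. The class I list is therefore not independent of the members. Of 81 cytosolic ribosomal protein genes 79 had H3K4me3 and 4 had H3K4me1 in 3 of 3 libraries, and of 36 respiratory complex I genes 36 and 1. Over all genes the shares are the 56.2% and 6.17% given above. No test of a difference between these groups and the proteasome genes was made.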

How the data were processed

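Peak lists of 6 Mint-ChIP libraries were used as deposited, 3 broad lists for H3K4me3 and 3 narrow lists for H3K4me1, each called by the authors on its own library. Per the labels, BWA, Picard, HOMER and Genrich were named with the mm10 genome, without versions; the column layout is that of MACS2, and caller, settings and control are not given in the sources used here. The deposited fold enrichment is a linear ratio to local background, at the summit in narrow lists and averaged over the peak in broad ones. The deposited −log10 p-value and q-value served to recover summit heights and to filter peaks. The deposited score, which the authors' caller derives from the q-value, was not used.

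Genes and TSSs (41438 TSSs of protein-coding transcripts) came from GENCODE M21 basic. The principal TSS had the best APPRIS rank. A peak was promoter-proximal if it lay within 5 kb of any TSS, and covered length was counted within 5 kb on either side of the principal TSS. The analysis was run in Python 3.11.15 with pandas 2.3.3, numpy 2.4.6, scipy 1.17.1 and samtools 1.23.1, and the peak measures were tested on simulated data. The genes named are the immunoproteasome genes and their counterparts, Psma8, Psma7, Psmb11, Psme3, Psme4, Psmf1, members without H3K4me3, members with H3K4me1 in 3 of 3 libraries, and the highest and lowest of each role by mean H3K4me3 covered length. Psmb1, Psmd14 and the genes that missed a TSS or share a peak were added after their values were seen. Counterpart genes were compared within libraries, a choice also made after seeing the data. Members and lists were chosen with earlier results of these data known. Shfm1, Paaf1 and Trac did not match the annotation. One gene of the GC B cell list is not reported here. Whether replicate numbers pair the marks is not stated. Deviations from the group means correlated between −0.011 and 0.009 across the marks. Different marks on the same chromatin need not deviate together, so these values cannot settle it.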

Additional observations from a re-analysis of the deposited data

How the results depend on the processing

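Of 63 recomputed values over the 5 main results, 52 kept their direction and stayed within 1.5 times of the reported count or within 1 SD of the reported difference, 9 moved and 2 reversed. The 47 members with H3K4me3 in every library became 27 with the best 10000 peaks of each list, as did the 47 members whose H3K4me3 covered length exceeded that of H3K4me1, because fewer peaks were kept. The 4 members with H3K4me1 in every library became 1 at a −log10 q-value of at least 5, 2 with the best 10000 peaks, 0 when a peak had to cover a TSS, and 16 when 2 of 3 libraries sufficed. Over all 21851 genes, 6 had H3K4me1 over a TSS in 3 of 3 libraries, so the 0 is near the background. For the remaining settings the share over all genes was not computed, so those counts describe the members only. Leaving out 1 library at a time gave 6 to 10 such members, 47 to 47 for both H3K4me3 counts, a difference in median covered length between immunoproteasome and constitutive genes of 340.5 bp to 769.5 bp, and a difference in H3K4me1 share of −25.5 to 1.3 percentage points, the last without H3K4me1 replicate 2, where the sign turned. Restricting the groups to 3 catalytic subunits each raised the covered length difference to 1623.0 bp and turned the H3K4me1 difference to 33.3 points. Without Psmb8 and Psmb9, an alternative chosen after seeing the data, the values were 332.7 ± 623.7 bp and −25.4 points, and without members that have a neighboring TSS within 1 kb the covered length difference was 446.3 ± 610.6 bp. With the replicate block, in which H3K4me3 had to exceed H3K4me1 in each same-numbered pair, the count was 47. It is not known whether the numbers pair the libraries, so this adds little. The limits are the small H3K4me1 summits, unknown read depth, the different calling modes and the unknown source of the replicates.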
